A study of Mus musculus with 4 samples.

Results

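The genes described here copy the genome and supply its building blocks: the origin recognition and licensing factors, the MCM helicase and its activators, the clamp and clamp loader, the DNA polymerases and primase, the RPA proteins that coat unwound DNA, the flap nuclease and DNA ligase, the enzymes that make deoxynucleotides, and a few proteins that copy chromatin or control entry into S phase. They were chosen by name, with earlier results of these data known. Of 50 listed genes, 49 were found among the probe sets that the platform annotation assigns to 1 gene. These probe sets measured 18193 genes, and 1 of the 50 listed genes was not analysed here. Each gene was represented by its brightest probe set, taken over the mean of all arrays, and its values are log2 intensities normalized by the authors. A level of log2 6 served as a floor. In all, 47 members reached it on at least 1 array and entered the tests. Orc1, a subunit of the origin recognition complex, stayed between 4.77 and 5.33 on all arrays, and the named probe set of Tyms, thymidylate synthase, stayed between 3.93 and 4.20, so that no change is reported for either. Of the 47, 36 were above the floor on all 4 arrays and 11 on only some of them.

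The series compared mouse bone marrow cells grown for 5 days in M-CSF, the growth factor that turns marrow precursors into macrophages. The cells came from wild-type mice or from Jmjd3-/- mice, which lack the histone demethylase also called Kdm6b, and were left unstimulated or given LPS, a bacterial cell wall component that activates macrophages, at 100 ng/ml for 4 h. There was 1 array for each of these 4 groups. Strain, age, sex, the number of animals behind each array and the part of the gene deleted were not given in the sources used here. Nothing says whether the arrays came from separate cultures. The p-values therefore rest on these 4 arrays alone, and the spread they measure, explained below, may be technical.

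With 1 array per group, a single difference between arrays has no error and no test. LPS effects were therefore tested as the effect shared by both genotypes, and genotype effects as the effect shared by both LPS states, in an additive limma model over all 9385 genes past the floor, with Benjamini-Hochberg adjustment and a threshold of 0.05. Each standard error (SE) below comes from that model, which has 1 residual degree of freedom and borrows information on spread from all genes. That degree of freedom is the gap between a gene's LPS differences in wild type and in the knockout. Unequal responses of the genotypes and noise between arrays both enter it and cannot be told apart. A gene can therefore miss the threshold because its responses were unequal. "Rose" and "fell" are used for genes that passed the threshold. Array medians over all probe sets lay between 4.15 and 4.24, and 14483 to 15561 probe sets reached the floor on each array.

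Before the results, the cell content of the arrays has to be stated. All 9 macrophage markers reached the floor on both knockout arrays and 8 of 9 on both wild-type arrays, and their summed level was 15.2 to 15.3 on every array. Such a sum mostly follows the brightest markers. Between knockout and wild type, 2 of the 9 rose, 1 (Itgam) fell and 6 did not pass, with shared effects from -1.04 to 4.57. In contrast, the summed level of 12 granulocyte and precursor markers was 11.8 and 12.2 on the wild-type arrays and 15.2 on both knockout arrays, with 3 and 6 of the 12 reaching the floor in wild type and all 12 in the knockout. The summed level of 14 stromal markers was 9.65 and 9.96 in wild type and 15.1 and 14.8 in the knockout. Mpo, a granule enzyme of granulocyte precursors, read 4.65 and 4.16 on the wild-type arrays and 11.64 and 11.02 on the knockout arrays. Col1a1, a collagen chain of stromal cells, read 5.84 and 6.30 against 12.35 and 11.87. In bulk RNA such as this, fewer cells of a type and less RNA per cell cannot be told apart. The brightest probe set of Kdm6b read 10.33 unstimulated and 11.23 with LPS in wild type, and 9.82 and 10.82 in the knockout; since the deleted part is not given, this does not check the labels.

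As background, DNA replication is prepared in G1 phase, when the origin recognition complex, Cdc6 and Cdt1 load the MCM helicase onto chromatin, a step known as licensing. In S phase, Cdc45 and the GINS proteins turn that helicase on, primase and polymerase alpha start each new strand, and polymerases delta and epsilon extend it while held to the template by the PCNA clamp. Many of these genes are driven by E2F transcription factors and are expressed in dividing cells, and M-CSF keeps macrophage precursors dividing in culture.

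Most replication genes were lower after LPS in both genotypes. In the shared test, 29 of 47 members fell, 1 rose and 17 did not pass, against 18.8% of all tested genes that fell and 11.2% that rose. The median shared LPS effect over the members was -0.92 on the log2 scale, and over all genes it was -0.22. Centring each array on its median moved the all-gene median by 0.12, from -0.22 to -0.10, and the members' median to -0.80, and changed the all-gene split from 1769 lower and 1054 higher calls to 1300 and 1185. Of the 36 members above the floor on all 4 arrays, 20 fell and 1 rose, where 17.5% of all such genes fell and 11.3% rose. The most negative effects were those of Tk1, Gmnn and Pole2, and the gene that rose was Rfc3. This order rests in part on signal below the floor: with 64 added to the linear values, which damps low signal, Gmnn (-1.87) came before Tk1 (-1.77). Pole2 then gave -1.06, behind Uhrf1, Prim1, Rrm2, Mcm7 (-1.18), Mcm3 (-1.15) and Fen1 (-1.14) as well. The same addition shrank the effects of 9 called members by over 1.5 times, among them Cdc6 (-0.69), Mcm2 (-0.85), Cdc45 (-0.74), Orc5 (-0.60), Pola1 (-0.54), Pole (-0.53), Chaf1b (-0.71) and E2f1 (-0.85). Between knockout and wild type, 4 members rose (Mcm6, Pola1, Lig1 and Tk1) and none fell by the same limma test. Of all tested genes, 6.39% rose and 3.12% fell. An unadjusted limma p below 0.05 was found for 17 of 47 members and for 2287 of all 9385 tested genes. In a limma fit without the other factor's term, 3 members fell with LPS and none rose in the knockout; where a call is said below to end under other alternatives, they are counted beside this fit.

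**Figure D1:**
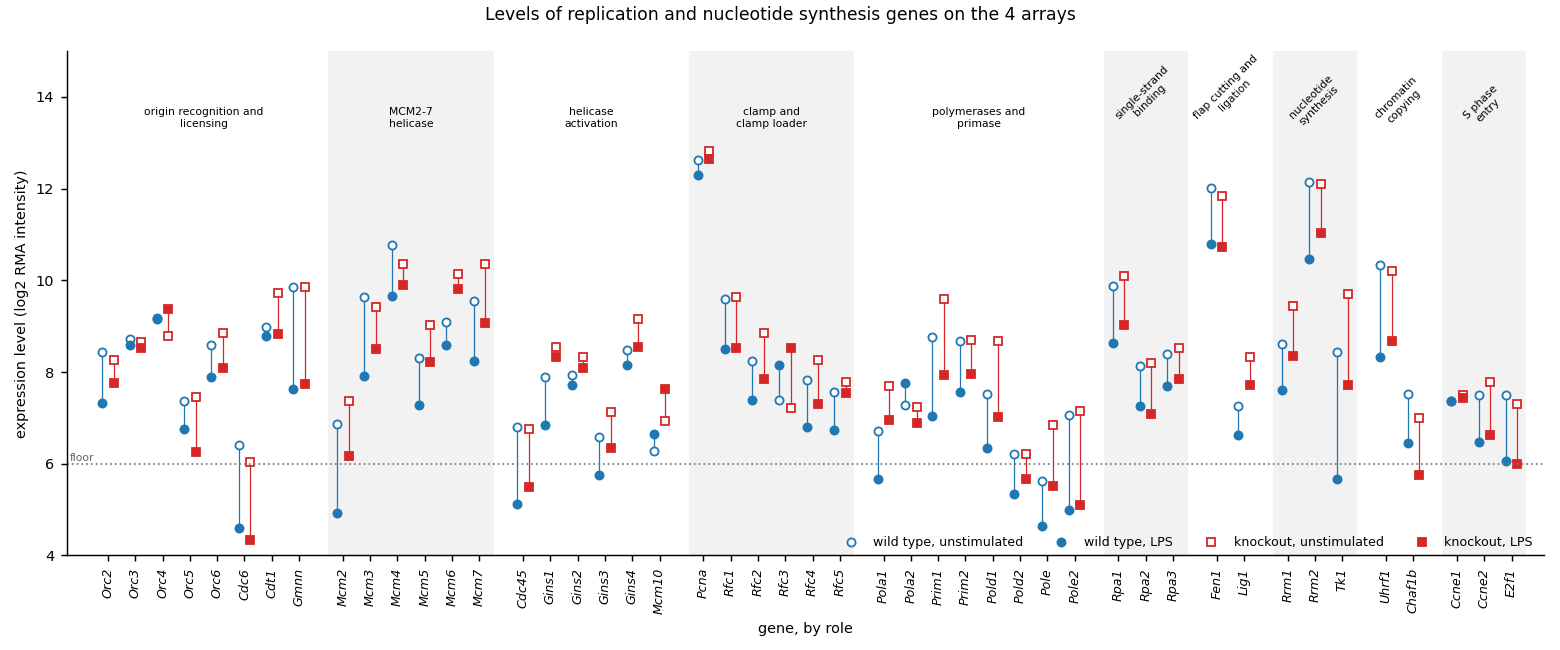
Log2 RMA intensity (vertical axis) of each tested member, by role (horizontal axis), with 1 point per array: circles for wild type, squares for the knockout, open without LPS and filled with LPS; lines join the arrays of a genotype and the dotted line is the floor of log2 6. Unstimulated arrays are brighter than the LPS array of the same genotype for most genes, and Rfc3, which reads 7.39 and 7.22 unstimulated and 8.15 and 8.52 with LPS, runs the other way.

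Because the members moved together after LPS, the stretches just upstream of their start sites were read from RefSeq promoter sequences on the GRCm38.p6 mouse assembly, which held 41 of the 50 listed genes and 38 of those tested. Windows of 300 bases, from 250 before to 50 after the start, were searched on both strands for the E2F-type words TTTCCCGC, TTTCGCGC, TTTGCCGC and TTTGGCGC, which can overlap each other, for CCAAT, a word read by the NF-Y factor, and for TTTGAA, the core of a cell cycle element called CHR. An E2F-type word stood in 14 of 38 member promoters, or 36.8%, and in 4.81% of the 7664 promoters of all tested genes. CCAAT stood in 23, or 60.5%, against 42.6%, and TTTGAA in 5, or 13.2%, against 14.2%. Within the members, the median LPS effect was -0.91 over the 14 members with an E2F-type word and -0.99 over the 24 without. These are letter matches in a window and not evidence of binding.

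The 160 bases upstream of the start are shown, 5′ to 3′ on the gene's strand, for 7 genes on which the results turn: Cdc6, Mcm5, Tk1 and Rrm2, which fell after LPS, Rfc3, which rose, and Mcm6 and Pola1, which with Tk1 were higher in the knockout. Capitals mark the E2F-type words and CCAAT or its reverse, ATTGG.
Cdc6, chr11:98907991-98908150, plus strand: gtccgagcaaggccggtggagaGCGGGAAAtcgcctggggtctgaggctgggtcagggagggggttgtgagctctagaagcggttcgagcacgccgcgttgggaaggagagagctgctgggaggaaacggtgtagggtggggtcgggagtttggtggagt
Mcm5, chr8:75109349-75109508, plus strand: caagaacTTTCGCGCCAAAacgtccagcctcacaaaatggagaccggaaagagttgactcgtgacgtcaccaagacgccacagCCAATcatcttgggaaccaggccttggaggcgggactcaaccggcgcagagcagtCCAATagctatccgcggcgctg
Mcm6, chr1:128359706-128359865, minus strand: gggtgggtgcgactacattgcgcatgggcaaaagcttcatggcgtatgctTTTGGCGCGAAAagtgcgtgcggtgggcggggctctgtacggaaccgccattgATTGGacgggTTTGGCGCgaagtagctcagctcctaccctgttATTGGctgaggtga
Pola1, chrX:93632156-93632315, minus strand: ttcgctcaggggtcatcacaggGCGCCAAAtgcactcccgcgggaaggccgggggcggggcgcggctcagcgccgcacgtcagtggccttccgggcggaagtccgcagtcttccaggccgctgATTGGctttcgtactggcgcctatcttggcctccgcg
Tk1, chr11:117826015-117826174, minus strand: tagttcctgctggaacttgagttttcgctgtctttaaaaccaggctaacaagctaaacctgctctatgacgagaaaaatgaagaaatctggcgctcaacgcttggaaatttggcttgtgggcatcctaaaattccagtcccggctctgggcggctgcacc
Rrm2, chr12:24708094-24708253, plus strand: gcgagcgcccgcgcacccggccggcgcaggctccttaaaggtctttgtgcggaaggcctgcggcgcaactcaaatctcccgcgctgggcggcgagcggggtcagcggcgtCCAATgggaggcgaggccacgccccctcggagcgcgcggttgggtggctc
Rfc3, chr5:151651209-151651368, minus strand: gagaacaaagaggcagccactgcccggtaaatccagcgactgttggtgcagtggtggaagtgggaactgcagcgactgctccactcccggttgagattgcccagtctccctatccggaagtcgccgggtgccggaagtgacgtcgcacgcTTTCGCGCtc
The overlapping E2F-type words of Mcm5 begin 153 and 149 bases before the start, and its CCAAT words at 77 and 22. Mcm6 has an overlapping pair at 110 and 106 bases and a further word at 47, with ATTGG at 57 and 14. The words of Cdc6 and Pola1 both begin 138 bases before the start. Rfc3, the member that rose, also carries an E2F-type word, 10 bases before its start. Rrm2 has a CCAAT word at 50 bases and no E2F-type word in the window, and Tk1 has neither in the stretch shown.

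Among the origin recognition and licensing genes, 4 of 8 tested fell with LPS and none rose. Gmnn encodes geminin, the inhibitor that keeps Cdt1 from licensing an origin again. It read 9.86 unstimulated and 7.64 with LPS in wild-type cells, and 9.85 and 7.74 in knockout cells. Both LPS arrays lay below both unstimulated arrays, and the genotypes nearly coincided. Gmnn fell by 2.17 on the log2 scale, or 4.49-fold (SE 0.18; limma, adjusted p = 0.00483). Cdc6, which loads the helicase, read 6.42 and 4.61 in wild type and 6.04 and 4.34 in the knockout. The gene was above the floor only without LPS, and it fell by 1.75 (SE 0.35; limma, adjusted p = 0.0245), a size that rests on readings below the floor. Cdt1, the partner that brings the MCM complex to the origin, read 8.97 and 8.79 in wild type and 9.73 and 8.83 in the knockout. Its LPS effect of -0.54 (SE 0.24) did not pass the limma test (adjusted p = 0.151), so the loader Cdc6 and the inhibitor Gmnn passed the test where Cdt1 did not; the difference between these genes was not tested.

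The origin recognition subunits differed among themselves. Orc6 read 8.59 and 7.89 in wild type and 8.86 and 8.09 in the knockout, and Orc5 read 7.37 and 6.75, then 7.45 and 6.25. Both fell, Orc6 by 0.73 (SE 0.18; limma, adjusted p = 0.0408) and Orc5 by 0.91 (SE 0.24; limma, adjusted p = 0.0473). These calls lie near the threshold: centring each array on its median ended both, at adjusted p = 0.0683 and 0.0721, and so did leaving out the floor (0.0601 and 0.0764). Orc2 read 8.44 and 7.33 in wild type and 8.26 and 7.77 in the knockout, an effect of -0.80 that did not pass (limma, adjusted p = 0.0571). Orc3 gave -0.13 and Orc4 0.27, and neither passed. Orc4 read 9.18 and 9.15 in wild type and 8.79 and 9.36 in the knockout, so that its LPS difference was -0.03 in one genotype and 0.57 in the other.

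The MCM helicase, a ring of 6 related subunits that unwinds the DNA, had 4 of 6 subunits that fell with LPS. All 6 were below 0, with a median of -1.11. Mcm2 read 6.87 and 4.92 in wild type and 7.37 and 6.16 in the knockout. It was below the floor only on the wild-type LPS array, and it fell by 1.58 (SE 0.29; limma, adjusted p = 0.0209). Mcm3 read 9.63 and 7.92, then 9.42 and 8.50, and fell by 1.32 (SE 0.26; limma, adjusted p = 0.0238). Mcm7 read 9.55 and 8.24 in wild type and 10.36 and 9.06 in the knockout. Its 2 LPS differences were nearly equal, -1.31 and -1.30, and the shared decrease was 1.31 (SE 0.18; limma, adjusted p = 0.0114). Mcm5 read 8.31 and 7.29, then 9.03 and 8.22, and fell by 0.92 (SE 0.19; limma, adjusted p = 0.0256). With the mean of all its probe sets in place of the brightest, the Mcm5 effect was -0.56 and no longer passed (limma, adjusted p = 0.0612). That mean includes 1 probe set below the floor on all arrays (3.53 to 4.31). The other dimmer Mcm5 probe set gave -1.18 in wild type and -0.81 in the knockout. Mcm4 read 10.78 and 9.65 in wild type and 10.36 and 9.89 in the knockout, for an effect of -0.80 (SE 0.22; limma, adjusted p = 0.0538). Mcm4 did pass under 3 alternatives: with probe set means (-0.96; limma, adjusted p = 0.04998), without less specific probe sets (-1.12; 0.0353) and after quantile normalization (-0.83; 0.0347). Mcm6 moved least, from 9.10 to 8.60 in wild type and from 10.14 to 9.82 in the knockout, an effect of -0.41 (SE 0.18; limma, adjusted p = 0.150).

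The factors that switch the loaded helicase on were less often past the threshold: Cdc45 fell and the other 5 of 6 did not pass, and their difference from the helicase subunits was not tested. Cdc45, which rides with the active helicase, read 6.80 and 5.12 in wild type and 6.76 and 5.50 in the knockout, and fell by 1.47 (SE 0.28; limma, adjusted p = 0.0224). The GINS subunits gave shared LPS effects between -0.22 and -0.80. Gins1 read 7.88 and 6.84 in wild type and 8.55 and 8.33 in the knockout, so the LPS difference was -1.04 in wild type and -0.22 in the knockout. Gins3 came closest to the threshold, at -0.80 (SE 0.23; limma, adjusted p = 0.0567), and passed without the intensity trend (adjusted p = 0.0471). Mcm10, a factor that binds the activated helicase, ran the other way at 6.27 and 6.64, then 6.93 and 7.64. Its effect of 0.54 did not pass (limma, adjusted p = 0.123), and a dimmer Mcm10 probe set read 6.28 and 5.89 in wild type and 6.50 and 7.23 in the knockout, opposite in sign within wild type.

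The sliding clamp and its loader did not move as 1 block. Pcna, the clamp, read 12.62 and 12.30 in wild type and 12.82 and 12.64 in the knockout, all far above the floor, for an LPS effect of -0.25 (SE 0.098; limma, adjusted p = 0.116). Of the 5 loader subunits, 3 fell. Rfc1, the large subunit, read 9.59 and 8.49 in wild type and 9.63 and 8.53 in the knockout, the same decrease of 1.10 in each (SE 0.18; limma, adjusted p = 0.0165). Rfc2 fell by 0.92 (SE 0.18; limma, adjusted p = 0.0247) and Rfc4 by 0.99 (SE 0.19; limma, adjusted p = 0.0216). Rfc5 read 7.56 and 6.73, then 7.78 and 7.55, and did not pass (-0.53; limma, adjusted p = 0.142). Rfc3 read 7.39 unstimulated and 8.15 with LPS in wild type, and 7.22 and 8.52 in the knockout. Both LPS arrays lay above both unstimulated arrays, and the gene rose by 1.03, or 2.04-fold (SE 0.22; limma, adjusted p = 0.0287). A second Rfc3 probe set gave the same order, 6.54 and 7.05 in wild type and 6.36 and 7.40 in the knockout. Rfc3 was therefore the member that rose while 3 partners in the same 5-subunit loader fell.

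Of the 8 polymerase and primase genes, 6 fell with LPS. Pole2, the second subunit of polymerase epsilon, read 7.07 and 5.00 in wild type and 7.15 and 5.09 in the knockout. Both LPS arrays were below the floor, so Pole2 was tested through its unstimulated readings and no fold is given. It fell by 2.06 in the fit (SE 0.26; limma, adjusted p = 0.00979). Its catalytic partner Pole read 5.63 and 4.64 in wild type and 6.85 and 5.51 in the knockout, above the floor on 1 array only, and fell by 1.16 (SE 0.31; limma, adjusted p = 0.0493). That call ended under 4 of the alternatives tried, with adjusted p between 0.0527 and 0.0813. Prim1, the catalytic subunit of primase, read 8.76 and 7.03 in wild type and 9.59 and 7.94 in the knockout. It fell by 1.69, or 3.23-fold (SE 0.18; limma, adjusted p = 0.00731), and a second probe set read 8.23 and 6.40, then 9.06 and 7.46. Prim2, the other primase subunit, read 8.68 and 7.57, then 8.69 and 7.96, and fell by 0.92 (SE 0.20; limma, adjusted p = 0.0295). Over the mean of its probe sets the Prim2 effect was -0.45 and did not pass (limma, adjusted p = 0.117). That mean includes 1 probe set below the floor on all arrays (3.35 to 4.02). The other dimmer Prim2 probe set gave -1.10 in wild type and -0.87 in the knockout.

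Polymerase alpha, which primase works with, split between its subunits. Pola1, the catalytic subunit, read 6.72 and 5.66 in wild type and 7.69 and 6.96 in the knockout, and fell by 0.89 (SE 0.22; limma, adjusted p = 0.0413), a call that ended under 3 alternatives: centring (adjusted p = 0.0635), no floor (0.0702) and quantile normalization (0.0526). Pola2, the accessory subunit, read 7.27 and 7.76 in wild type and 7.24 and 6.89 in the knockout, a shared effect of 0.07 (limma, adjusted p = 0.857). Its probe sets disagreed: a dimmer one read 4.27 and 6.77 in wild type and 3.70 and 4.02 in the knockout, the widest spread between probe sets of any member in the wild-type LPS difference (SD 1.42, against a median SD of 0.18). Pold1, the catalytic subunit of polymerase delta, read 7.52 and 6.35, then 8.67 and 7.01, and fell by 1.42 (SE 0.22; limma, adjusted p = 0.0142). Pold2 read 6.21 and 5.34, then 6.21 and 5.67, and did not pass (-0.70; limma, adjusted p = 0.129).

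All 3 subunits of RPA, which protects single-stranded DNA at the fork, fell with LPS. Rpa1 read 9.88 and 8.63 in wild type and 10.09 and 9.04 in the knockout, and fell by 1.15 (SE 0.19; limma, adjusted p = 0.0155). A dimmer Rpa1 probe set read 7.97 and 6.03 in wild type and 7.28 and 6.90 in the knockout, a much smaller decrease in the knockout. Rpa2 read 8.14 and 7.27, then 8.20 and 7.08, and fell by 0.99 (SE 0.19; limma, adjusted p = 0.0234). Rpa3 read 8.40 and 7.70, then 8.53 and 7.85; its decrease of 0.69 was the smallest of the 3 and the closest to the threshold (SE 0.18; limma, adjusted p = 0.0466), and 5 of the alternatives tried ended it, with adjusted p between 0.0537 and 0.0800. Fen1, which trims the flaps between Okazaki fragments, read 12.02 and 10.79 in wild type and 11.83 and 10.73 in the knockout. It fell by 1.17, or 2.25-fold (SE 0.13; limma, adjusted p = 0.00817). Lig1, which then seals the nick, read 7.26 and 6.62 in wild type and 8.33 and 7.72 in the knockout, an LPS effect of -0.63 that did not pass (SE 0.19; limma, adjusted p = 0.0620) except with probe set means (adjusted p = 0.0485). Lig1 has 1 probe set, so its own values were the same there. Only the other genes of the fit changed, with 7819 genes in place of 9385.

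The 3 tested nucleotide synthesis members all fell. Tk1, the thymidine kinase of dividing cells, read 8.45 unstimulated and 5.67 with LPS in wild type, and 9.69 and 7.72 in the knockout. The wild-type LPS array alone was below the floor. Tk1 fell by 2.38, or 5.19-fold (SE 0.26; limma, adjusted p = 0.00739), the most negative effect of any member except with 64 added to the linear values, where Gmnn was lower. Rrm2, the small subunit of ribonucleotide reductase, which turns ribonucleotides into deoxynucleotides, read 12.14 and 10.46 in wild type and 12.11 and 11.04 in the knockout. It fell by 1.37, or 2.59-fold (SE 0.19; limma, adjusted p = 0.0113). Rrm1, the large subunit, read 8.60 and 7.61, then 9.44 and 8.34, and fell by 1.04 (SE 0.18; limma, adjusted p = 0.0185).

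Uhrf1, which carries DNA methylation over to the new strand, read 10.33 and 8.32 in wild type and 10.21 and 8.68 in the knockout, and fell by 1.77, or 3.41-fold (SE 0.21; limma, adjusted p = 0.00857). Chaf1b, a subunit of the chromatin assembly factor that places histones behind the fork, read 7.52 and 6.45, then 7.01 and 5.76, and fell by 1.16 (SE 0.22; limma, adjusted p = 0.0220). Among the regulators of S phase entry, E2f1, an activating E2F factor, read 7.50 and 6.07 in wild type and 7.30 and 5.99 in the knockout, and fell by 1.37 (SE 0.21; limma, adjusted p = 0.0147). Cyclin E2 (Ccne2) read 7.51 and 6.48, then 7.78 and 6.62, and fell by 1.09 (SE 0.20; limma, adjusted p = 0.0202). Its relative cyclin E1 (Ccne1) stayed level at 7.36 and 7.37, then 7.50 and 7.42, with an effect of -0.03 (limma, adjusted p = 0.914) that turned positive, 0.12 to 0.28, when its probe sets were averaged or less specific ones left out, and 0.08 to 0.09 under quantile normalization or centring.

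**Figure D2:**
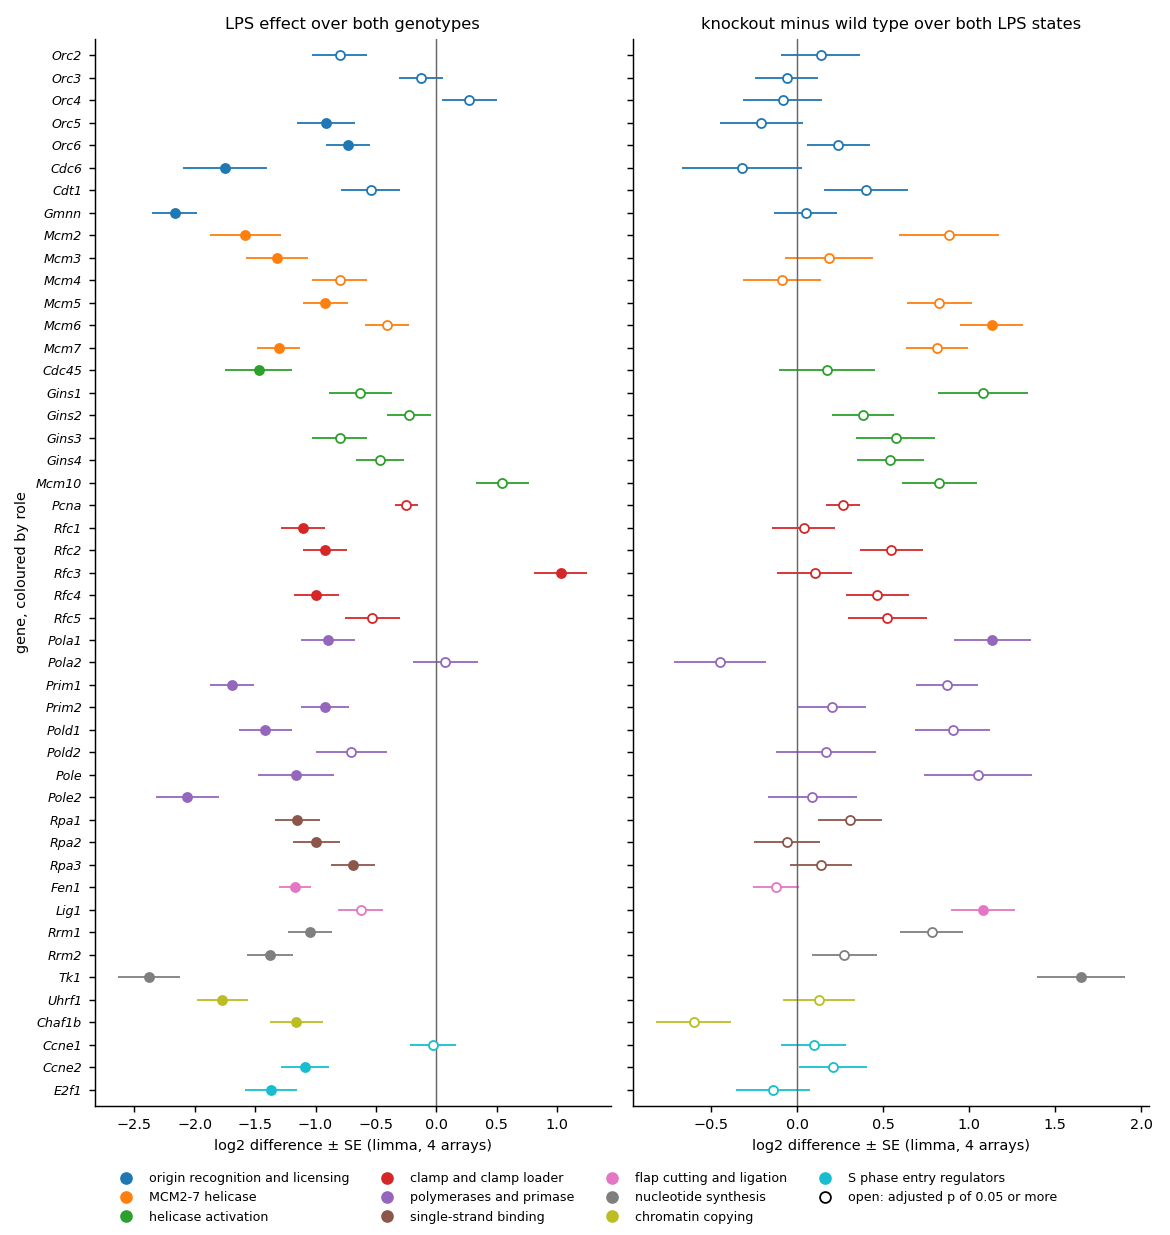
Shared LPS effect and shared genotype effect of each tested member in log2 units, with bars of 1 SE from the additive limma fit over 4 arrays; filled points passed the adjusted p threshold and colours give the role. Most LPS effects lie left of 0, with Tk1 lowest at -2.38 and Rfc3 highest at 1.03, and most genotype effects lie right of 0, with Tk1 highest at 1.65.

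Each genotype was then read on its own, as single differences with no test, counting genes whose brighter array reached the floor. In wild type, 25 of 46 members were at least 2-fold lower with LPS and none was at least 2-fold higher, against 14.3% and 9.86% of all genes. In the knockout, 21 of 47 were at least 2-fold lower and 1, Rfc3, was at least 2-fold higher, against 15.5% and 11.0%. These counts depend on the settings: with a floor of log2 8 they were 14 in wild type and 12 in the knockout, with 64 added 11 and 9, and with probe set means 15 in wild type. At least 2-fold decreases in both genotypes were counted for 17 of 47 members, where 9.40% of all genes did the same. They came from nearly every role: Cdc6 and Gmnn, Mcm2 and Mcm7, Cdc45, Rfc1, Prim1, Pold1 and Pole2, Rpa1 and Fen1, Rrm2 and Tk1, Uhrf1 and Chaf1b, and Ccne2 and E2f1. The LPS difference was below 0 in both genotypes for 42 of 47 members, against 54.1% of all genes, and above 0 in both for Rfc3 and Mcm10. Orc4, Pola2 and Ccne1 had opposite signs in the 2 genotypes.

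The LPS difference was more negative in wild type than in the knockout for 32 of 47 members, or 68.1%, where 47.6% of all genes showed that order. The median of the knockout difference minus the wild-type difference was 0.10 over the members and -0.03 over all genes. Tk1 was lower by 2.78 in wild type and by 1.98 in the knockout. Mcm3 gave -1.72 and -0.92, Mcm2 gave -1.95 and -1.21, and Gins1 gave -1.04 and -0.22. Pold1 ran the other way, at -1.17 in wild type and -1.66 in the knockout. By its brightest probe set, no member's 2 LPS differences lay 2-fold or more apart, where 5.19% of all genes differed by that much upward and 4.73% downward. Most dimmer probe sets reaching the floor gave the same, but some did not. Among these, knockout minus wild type was -2.18 for Pola2, 1.56 for Rpa1, 1.13 for Mcm10 and 1.03 for Mcm3. Those of Pola2, Mcm10 and Mcm3 read below the floor on at least 1 array. None of these contrasts could be tested with 1 array per group. Across the 47 members, the 2 LPS differences had a Pearson correlation of 0.84, and across all tested genes it was 0.82; genes of 1 array share its RNA and are not independent.

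**Figure D3:**
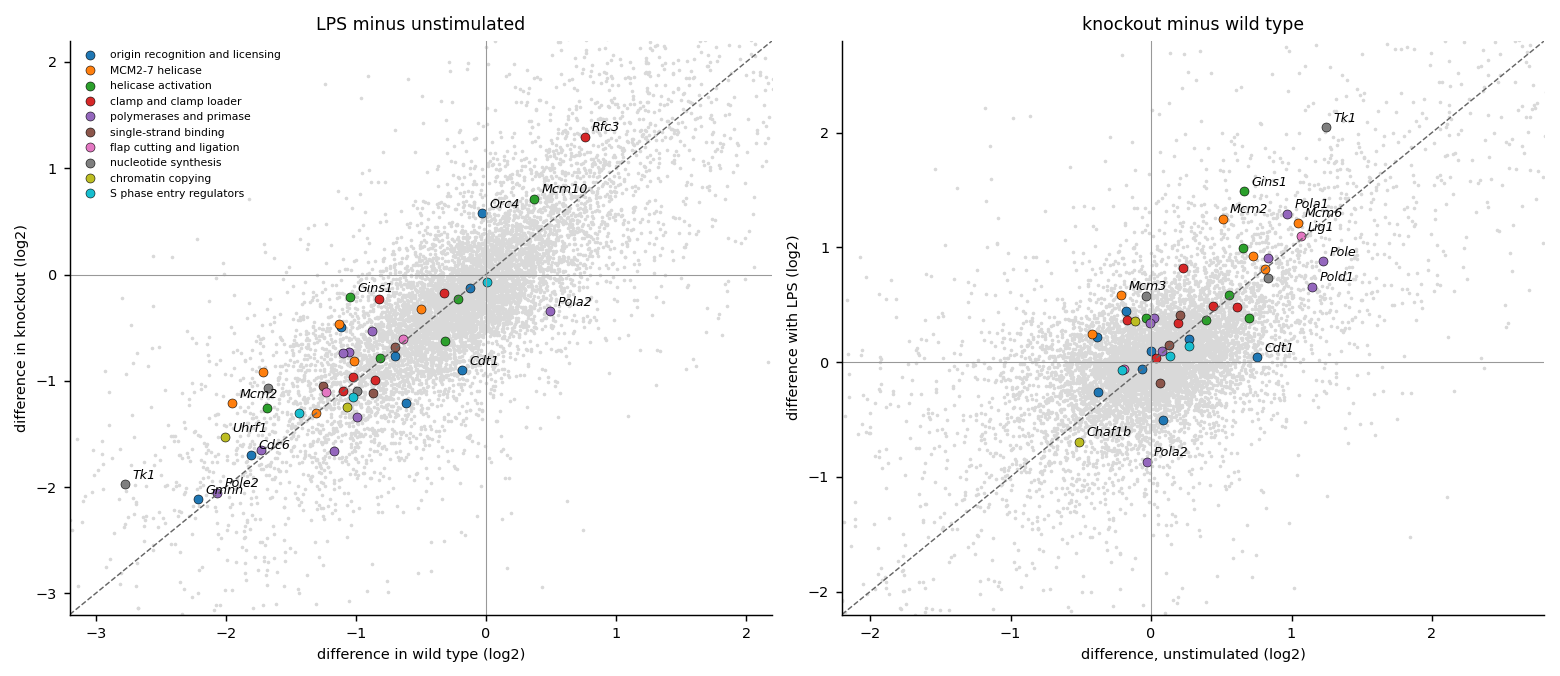
Single differences in log2 units, 1 array per group and no error: on the left the LPS difference in the knockout against that in wild type, on the right the knockout difference with LPS against that without, for members (coloured by role) and all tested genes (grey, some outside the frame), with the dashed line of equal values. On the left most members lie below 0 on both axes, with Rfc3 at 0.76 and 1.30 farthest above, and on the right Tk1 lies highest at 1.25 and 2.05.

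Most members had several probe sets, which offers a check within each array. The 49 members held 107 one-gene probe sets, 81 of which reached the floor, and 34 of these were dimmer ones in 25 members. The dimmer probe sets had the same sign as the brightest in 32 of 34 cases for LPS in each genotype. For knockout against wild type the count was 29 of 34 unstimulated and 28 of 34 with LPS. The median SD between probe sets of a gene was 0.14 to 0.18 across these 4 differences.

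Replication genes tended to read higher on the knockout arrays than on the wild-type arrays, and few passed the test. The median shared genotype effect was 0.24 over the members and 0.05 over all genes, and 43 of 47 did not pass, 33 of them above 0 and 10 below. Of the 36 members above the floor on all 4 arrays, 2 rose and none fell in this limma test, against 2.91% and 2.60% of all such genes. The genotype difference was above 0 in both LPS states for 29 of 47 members, against 40.4% of all genes, and below 0 in both for 6, against 28.9%. These values stand beside the granulocyte and stromal markers given above, whose summed level was higher on both knockout arrays: 10 of 12 tested granulocyte markers rose and 1, Mmp8, fell, and 12 of 13 tested stromal markers rose, with median genotype effects of 5.59 and 5.37. The part of those cells in the genotype results was not tested. The median LPS effects of the same lists were 0.29 and 0.01.

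Tk1 had the largest genotype effect. Its readings of 8.45 and 5.67 in wild type and 9.69 and 7.72 in the knockout differ by 1.25 without LPS and by 2.05 with it, and it rose by 1.65, or 3.13-fold (SE 0.26; limma, adjusted p = 0.0254). Mcm6 rose by 1.13, or 2.19-fold (SE 0.18; limma, adjusted p = 0.0284), from 9.10 and 8.60 to 10.14 and 9.82. Both knockout arrays lay above both wild-type arrays for Mcm6, while for Tk1 the groups overlapped, because the knockout LPS array was below the wild-type unstimulated one. A second Mcm6 probe set read 8.44 and 7.77 in wild type and 9.27 and 9.02 in the knockout. Averaged over its probe sets, 1 of which was below the floor, the Mcm6 effect was 0.69 and did not pass (limma, adjusted p = 0.120). Lig1 rose by 1.08, or 2.11-fold (SE 0.19; limma, adjusted p = 0.0324), with nearly equal differences of 1.07 and 1.10 in the 2 LPS states, and Pola1 rose by 1.13, or 2.19-fold (SE 0.22; limma, adjusted p = 0.0463). With 64 added to the linear values the Pola1 effect was 0.70. Its call ended under 4 of the alternatives tried, with adjusted p between 0.0540 and 0.0639, and that of Lig1 ended with a floor of log2 8 (adjusted p = 0.0755).

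Several further members read higher in the knockout in both LPS states without passing. Mcm7 differed by 0.81 in each state (SE 0.18; limma, adjusted p = 0.0633), and Mcm5 by 0.73 and 0.92 (shared effect 0.83, SE 0.19; limma, adjusted p = 0.0655). Prim1 differed by 0.83 and 0.91 (0.87, SE 0.18; limma, adjusted p = 0.0537, and 0.0471 after quantile normalization), and Rrm1 by 0.83 and 0.73 (0.78; limma, adjusted p = 0.0714). Gins1 differed by 0.66 and 1.49 (1.08, SE 0.26; limma, adjusted p = 0.0775). Genes of the same complexes did not follow: Mcm3 and Mcm4 gave 0.19 and -0.09, and Rrm2, the partner of Rrm1, gave 0.27. The lowest genotype effect was that of Chaf1b, at -0.60 (limma, adjusted p = 0.185). In single differences, 5 of 47 members were at least 2-fold higher in the knockout without LPS (Mcm6, Pold1, Pole, Lig1 and Tk1; background 9.54%) and 6 of 42 with LPS (Mcm2, Mcm6, Gins1, Pola1, Lig1 and Tk1; background 9.76%). None was at least 2-fold lower in either state, against 5.74% and 5.65% of all genes. Mcm6, Lig1 and Tk1 were at least 2-fold higher in both states, against 6.60% of all genes, and none was at least 2-fold lower in both, against 2.76%.

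The other genes of the same pathways were listed by function. From each list genes among those with the largest effects are given, and Timeless, Asf1a, Tipin, Dtymk, Dck and Cdkn1a were named after their values were seen. Of 30 further tested replication fork genes, 15 fell with LPS and 2 rose, with a median of -0.81, where 18.8% of all tested genes fell and 11.2% rose. Dna2, a nuclease that also trims flaps, fell by 2.46 (SE 0.22; limma, adjusted p = 0.00504), and Clspn, the checkpoint adaptor claspin, by 2.46 (SE 0.33; limma, adjusted p = 0.0104). Timeless, a fork protection protein, rose by 1.35 (SE 0.26; limma, adjusted p = 0.0237), and Asf1a, a histone chaperone, by 1.18 (SE 0.19; limma, adjusted p = 0.0150), while the related chaperone Asf1b fell by 1.98 (SE 0.18; limma, adjusted p = 0.00565). Timeless and its partner Tipin, which fell by 0.96 (SE 0.20; limma, adjusted p = 0.0282), had opposite signs. In the genotype comparison 2 of the 30 rose and 1 fell, against 6.39% and 3.12% of all tested genes. Those that rose were Top2a by 1.09 (SE 0.20; limma, adjusted p = 0.0393) and Asf1b by 0.94 (SE 0.18; limma, adjusted p = 0.0445). Top1, the topoisomerase that relaxes DNA ahead of the fork, fell by 1.42 (SE 0.20; limma, adjusted p = 0.0179). Top1 read 10.32 and 10.34 in wild type and 8.72 and 9.11 in the knockout.

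Deoxynucleotide supply outside the 3 synthesis members did not move 1 way. Of 19 further tested genes of that supply and its breakdown, 2 fell and 5 rose with LPS, against 18.8% and 11.2% of all tested genes. Dut and Dtymk, which serve the path to dTTP, fell by 1.11 and 1.10 (SE 0.19 for each; limma, adjusted p = 0.0173 and 0.0172). Those that rose were Cmpk2, a mitochondrial nucleotide kinase known as an interferon-induced gene, by 5.81 (SE 0.22; limma, adjusted p = 0.00193), Upp1, uridine phosphorylase, by 4.96 (SE 0.21; limma, adjusted p = 0.00207), Pnp, purine nucleoside phosphorylase, by 2.08, Samhd1, which breaks down deoxynucleotides, by 1.86, and Dck, deoxycytidine kinase, by 0.64. Upp1 was also the 1 gene of this list with a genotype call: it read 6.29 and 11.01 in wild type and 3.91 and 9.11 in the knockout, and fell by 2.14 between genotypes (SE 0.21; limma, adjusted p = 0.00722). Samhd1 read 12.07 and 13.31 in wild type and 10.73 and 13.21 in the knockout. The genes of this list that rose thus include a salvage kinase and enzymes that break nucleosides or deoxynucleotides down, next to the decreases of Rrm1, Rrm2 and Tk1. Of 20 tested genes of purine and pyrimidine synthesis from simple precursors, 6 fell and none rose (median -0.68), against 18.8% and 11.2% of all tested genes. Umps, which makes UMP, fell by 1.44 (SE 0.18; limma, adjusted p = 0.00994). Ctps, a CTP synthase, gave the same effect of -1.44 but did not pass (SE 0.40; limma, adjusted p = 0.0542). Its LPS difference was -2.23 in wild type and -0.65 in the knockout, a gap that widens the SE. No gene of that list passed limma in the genotype comparison, where 4 of 20 had an unadjusted p below 0.05. Over all 9385 tested genes, 2287 had such a p.

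Among 24 tested G1 and S phase regulators, 10 fell and 4 rose with LPS, against 18.8% and 11.2% of all tested genes. The inhibitor Cdkn2c read 7.57 and 4.85 in wild type and 8.25 and 6.15 in the knockout and had the lowest effect of the list, a decrease of 2.41 (SE 0.25; limma, adjusted p = 0.00709). Skp2, which marks cell cycle inhibitors for destruction, fell by 2.27 (SE 0.33; limma, adjusted p = 0.0126), and E2f2 by 2.12 (SE 0.38; limma, adjusted p = 0.0195). Skp2 read 7.48 and 5.73 in wild type and 7.73 and 4.95 in the knockout. E2f2 read 5.97 and 4.28, then 7.10 and 4.55, above the floor on 1 array only. Both sizes rest on readings below the floor. The cyclin Ccnd2 rose by 2.90 (SE 0.16; limma, adjusted p = 0.00238), reading 9.10 and 12.03 in wild type and 8.91 and 11.78 in the knockout, and the cell cycle inhibitor Cdkn1a rose by 0.82 (SE 0.14; limma, adjusted p = 0.0163), opposite in sign to Cdkn2c. None of these 24 genes passed limma in the genotype comparison. An unadjusted p below 0.05 was found for 6 of them, and for 2287 of all 9385 tested genes. The largest genotype value was that of the cyclin Ccnd1, 2.06 (SE 0.50, limma, adjusted p = 0.0772). Ccnd1 went from 8.97 and 8.27 in wild type to 10.01 and 11.37 in the knockout. Of 26 mitosis genes, 20 fell with LPS and none rose, with a median of -1.75, against 18.8% and 11.2% of all tested genes. In the knockout 11 rose and none fell, with a median of 1.14, against 6.39% and 3.12% of all tested genes. Of those that rose, Ccnb2, Cdc20, Kif11, Kif23 and Cenpe were below the floor on the wild-type LPS array. Plk1, Cenpf and Nek2 entered the tests through the unstimulated knockout array alone. The mitosis values thus rest in part on readings below the floor. Kif20a, a motor protein of cell division, read 7.79 and 5.32 in wild type and 8.67 and 6.33 in the knockout, and fell by 2.40 with LPS (SE 0.20; limma, adjusted p = 0.00471). Kif11, the motor that separates the spindle poles, read 7.23 and 4.81, then 8.50 and 6.98, and rose by 1.72 in the knockout (SE 0.29; limma, adjusted p = 0.0310). For the genotype effect, the replication members thus had 4 of 47 calls and a median of 0.24 where the mitosis genes had 11 of 26 and 1.14; whether the lists differ was not tested.

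**Figure D4:**
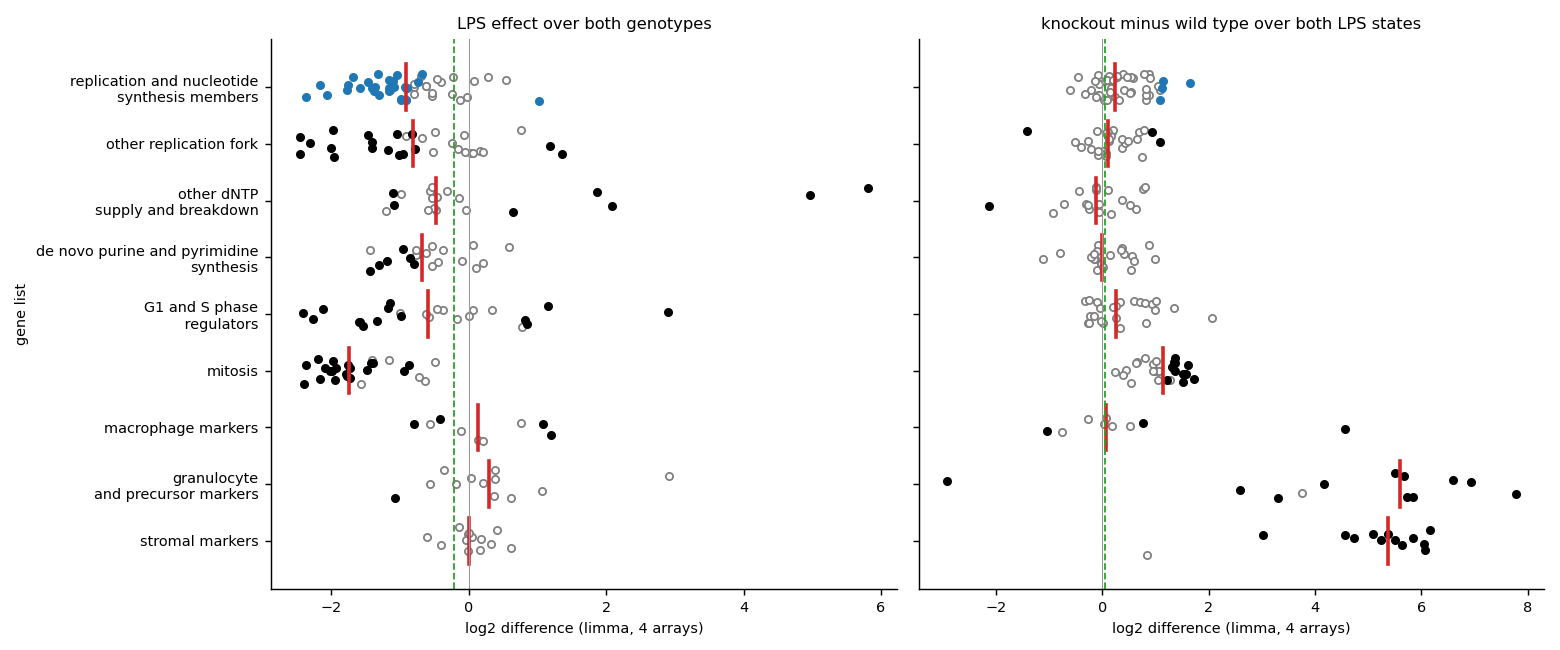
Shared LPS effect (left) and shared genotype effect (right) of each tested gene of the members, companion lists and marker lists, in log2 units from the additive limma fit; filled points passed the adjusted p threshold, red bars are list medians and the green dashed line is the median of all tested genes. The members have medians of -0.92 and 0.24, the mitosis genes -1.75 and 1.14, and the granulocyte and stromal markers 5.59 and 5.37 in the genotype panel.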

How the data were processed

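Per the labels' protocols, total RNA of mouse bone marrow macrophages was extracted with Trizol. By the same protocols, biotinylated cRNA was made from it with the NuGEN Ovation kit for the 4 Affymetrix arrays. The authors deposited log2 values per probe set; RMA is named in the submitters' processing notes, with no version or settings (not given in the sources used here). RMA fits each probe set across arrays, and levels of different probe sets are not comparable.

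Of 45101 probe sets, 34945 have 1 gene in the platform annotation, 932 several and 9224 none, and 64 are Affymetrix controls; the last 3 kinds were not used. Symbols were updated through RefSeq (GRCm38.p6): 34741 identifiers matched and 204 kept the older symbol. Each gene was represented by its brightest probe set. Genes reaching log2 6 on at least 1 array (9385 of 18193) were fitted in limma 3.58.1 (R 4.3.3) with genotype and LPS as additive terms, eBayes with an intensity trend (prior degrees of freedom 3.84, residual 1) and Benjamini-Hochberg adjustment over all 9385. The fit was tested on simulated data, which held additive effects only. They could not show whether the additive model holds for these arrays. Single differences between arrays were counted at 2-fold or more where the brighter array reached the floor. Any member could be named, and from each companion list the genes with the largest absolute LPS and genotype effects, up to 4 per effect. The members and lists were chosen with earlier results of these data known. Alternatives were a floor of log2 8, no floor, probe set means, leaving out less specific probe sets, eBayes without the trend, quantile normalization, median centring, adding 64 to the linear values, and a fit without the other factor's term. The number of arrays limits the precision.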

Additional observations from a re-analysis of the deposited data

Results flagged for a closer look

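In 15 cases a member's difference had opposite signs in the 2 conditions under which it was read: 3 of 47 members for LPS and 12 for genotype. Of all tested genes, 54.1% were below 0 and 27.7% above 0 in both genotypes for LPS. For genotype, 40.4% were above 0 and 28.9% below 0 in both LPS states. The rest had opposite signs or a value of 0, so such cases were not particular to the members. With 1 array per group the difference between conditions was not tested, and no cause was examined. For the LPS effect, the knockout difference minus the wild-type difference was 0.61 for Orc4, -0.84 for Pola2 and -0.083 for Ccne1. For the effect of genotype, the difference with LPS minus the difference without was positive, from below 0 to above it, for Orc2 (0.62), Orc4 (0.61), Gmnn (0.10), Mcm3 (0.80), Mcm4 (0.66), Cdc45 (0.42), Rfc3 (0.54), Pold2 (0.34), Rrm2 (0.61) and Uhrf1 (0.47). It was negative for Orc5 (-0.59) and Rpa2 (-0.25). Mcm3 shows the size of these shifts: knockout minus wild type was -0.21 without LPS and 0.58 with it.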

How the results depend on the processing

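No paired analysis was possible because each group has 1 array; for the same reason no array could be left out. Of the 30 members called for LPS, 23 kept their call under every alternative that measured them except the fit without the genotype term, and of the 4 called for genotype only Tk1 did. The count of members that fell with LPS, 29, became 18 with a floor of log2 8 (31 members tested) and 3 without the genotype term; other settings gave 24 to 28. The 4 members that rose in the knockout became 2 with a floor of log2 8, 2 with probe set means and 0 without the LPS term (limma). Members at least 2-fold lower with LPS numbered 14, 15 and 11 in wild type with a floor of log2 8, probe set means and 64 added, and 12 and 9 in the knockout with that floor and with 64 added. Those at least 2-fold higher in the knockout became 1 without LPS when 64 was added, and 2, 2 and 3 with LPS under the floor of log2 8, probe set means and 64 added. Signs turned for effects near 0. The LPS effect of Ccne1 was 0.12 with probe set means, 0.28 without less specific probe sets, 0.077 after quantile normalization and 0.093 after centring. Genotype effects under probe set means were -0.065 for Orc2, 0.21 for Orc3, -0.10 for Rfc1, -0.0016 for Prim2, 0.018 for Rpa2 and -0.023 for Uhrf1. Without less specific probe sets they were 0.056 for Mcm4 and -0.031 for Ccne1, and after centring -0.032 for Gmnn and -0.043 for Rfc1. Over all genes, LPS decreases numbered 1769, 1166 with a floor of log2 8 and 84 without the genotype term, and increases 1054 and 183 without it. Genotype decreases numbered 293, 163 with that floor, 189 with probe set means and 11 without the LPS term, and increases 600, 298, 341 and 100. The fit without a term leaves that factor in the spread; the causes of the other changes were not tested. Signal near the floor limits genes that fall below it: Cdc6, Cdc45, Pold2, Pole and Pole2 were below log2 6 on both LPS arrays. So were Dna2, Clspn, Skp2 and E2f2 of the companion lists.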
